A study of Mus musculus with 6 samples.

Results

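Matrix metalloproteinases (MMPs), ADAMTS proteases, ADAMTS-like proteins and their inhibitors were followed in cultured embryonic ureters with and without LiCl. The genes were taken from a list of 43 symbols, each matched to its Ensembl identifier, and a gene was kept when it had 10 or more counts in at least 3 of the 6 samples. This left 39 members among the 56748 identifiers of the count table. All 39 were among the 18188 genes that were tested. The kept genes are 11 MMPs, 18 ADAMTS genes, 5 ADAMTS-like genes, and 5 inhibitor genes (4 TIMPs and *Reck*). Of the 39, 38 had at least 10 counts in every sample. The exception was *Adamts8*, whose groups overlapped.

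Ureters of wildtype NMRI embryos were explanted at E12.5, cultured for 18 h on membranes, and profiled as whole organs by poly-A RNA-Seq. The control group received water (n = 3), and the LiCl group received 15 mM LiCl (n = 3), a salt that inhibits the kinase GSK3B and thereby activates WNT signaling. The labels do not say how many ureters went into a sample, nor whether the samples came from separate litters, so the p-values measure only the spread between these samples.

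MMPs and ADAMTS proteases are zinc-dependent enzymes that cut the extracellular matrix. MMPs cleave collagens, gelatin and many proteins of the pericellular space, and several are anchored in the cell membrane. ADAMTS proteases are secreted and bind to the matrix through thrombospondin repeats. Some cut proteoglycans such as versican and aggrecan, others trim procollagens or act on fibrillin microfibrils. ADAMTS-like proteins share the thrombospondin repeats but lack the protease domain. TIMPs are small secreted inhibitors that block the active site, and RECK is a membrane-anchored inhibitor. In developing organs these genes are known for their part in branching, tube growth and the remodeling of mesenchyme around an epithelium.

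Of the 43 listed genes, 4 were not measurable here. They all belong to the secreted, inducible MMPs, and their promoters are shown because they shared letters that were not found in the 25 promoters searched for measured members. *Mmp3*, a stromelysin, and *Mmp7*, matrilysin, had 0 counts in all samples, where a count of 0 allows up to 0.105 CPM, the count scaled by library size, in the shallowest library (3 counts of the total, counting error only). *Mmp10*, a second stromelysin, had 4 counts in control replicate 2, 1 in LiCl replicate 3 and 0 elsewhere. *Mmp13*, a collagenase, had 3, 16 and 3 counts in control replicates 1 to 3 and 1, 1 and 5 with LiCl. Promoters were taken from a RefSeq table of the build GRCm38.p6, which is not the build of the counts. The table held 30 promoters of 28 of the listed genes, each spanning 250 bases before to 50 bases after the gene's start. Of all 32851 promoters in the table, 7.81% held the AP-1 letters TGANTCA on either strand, and 3.73% the TCF/LEF letters CTTTGAT. Among the listed genes, the AP-1 letters were found in 4 genes, *Mmp3*, *Mmp7*, *Mmp10* and *Mmp13*, and in 0 of the 25 promoters of measured members that the table holds. These belong to 24 of the 39 measured members, and the other 15 were not searched. Among those not searched were *Mmp9*, *Mmp2*, *Mmp19*, *Adamts5* and *Adamts6*, so the letters were not compared with all measured secreted MMPs. The TCF/LEF letters were found in 1 gene, *Mmp7*. The 100 bases before the start are printed below for these 4 genes, all on chromosome 9, and for 3 measured members, with the AP-1 letters in capitals.

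Mmp3, chr9:7445722-7445821, plus strand: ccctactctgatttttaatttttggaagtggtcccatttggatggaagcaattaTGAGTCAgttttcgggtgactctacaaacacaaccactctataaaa
Mmp7, chr9:7691990-7692089, plus strand: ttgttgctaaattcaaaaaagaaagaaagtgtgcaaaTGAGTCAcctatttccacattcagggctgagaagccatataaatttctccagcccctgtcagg
Mmp10, chr9:7502242-7502341, plus strand: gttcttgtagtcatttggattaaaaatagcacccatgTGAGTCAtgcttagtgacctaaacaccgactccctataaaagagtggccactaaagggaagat
Mmp13, chr9:7272414-7272513, plus strand: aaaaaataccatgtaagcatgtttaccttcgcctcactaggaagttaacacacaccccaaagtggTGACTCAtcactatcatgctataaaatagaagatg
Mmp14, chr14:54431498-54431597, plus strand: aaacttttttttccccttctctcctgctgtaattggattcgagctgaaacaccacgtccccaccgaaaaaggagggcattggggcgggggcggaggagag
Adamts9, chr6:92943535-92943634, minus strand: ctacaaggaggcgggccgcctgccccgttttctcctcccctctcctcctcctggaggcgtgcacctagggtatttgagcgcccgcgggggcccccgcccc
Adamts18, chr8:113848840-113848939, minus strand: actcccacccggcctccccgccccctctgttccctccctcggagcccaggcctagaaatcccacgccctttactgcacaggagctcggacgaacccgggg

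The first base of the AP-1 letters lay 46 bases before the start in *Mmp3*, 63 bases in *Mmp7* and in *Mmp10*, and 35 bases in *Mmp13*. For *Mmp7* this is the printed promoter. Its other promoter, which overlaps the printed one, did not hold the AP-1 letters, so 4 of the 5 promoters of these genes held them. *Mmp14*, *Adamts9* and *Adamts18* stand for measured members, namely a highly expressed MMP and 2 ADAMTS genes that fell after LiCl. A match of letters is a description of the sequence and not a bound site.

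After LiCl, most members were lower. At an adjusted p under 0.05 in edgeR's quasi-likelihood test, 25 of the 39 members fell and 4 rose, whereas of all tested genes 22.4% fell and 21.1% rose, together 43.5%. The median log2 fold change of the members was -0.52, against -0.01 for all tested genes. With the additional threshold of a log2 fold change above 1 or below -1, 8 members were lower and 1 was higher, beside 4.59% and 2.74% of all genes, or 7.33% in either direction. The 8 were *Adamts18*, *Adamts6*, *Mmp23*, *Adamtsl2*, *Adamts5*, *Adamtsl4*, *Adamts16* and *Adamts9*, and the member that rose past the threshold was *Mmp9*. All LiCl samples lay below all controls in 26 members and above them in 6, compared with 27.8% and 26.4% of all tested genes, or 54.2% either way. The members were summed within each family on the FPKM scale, which corrects for gene length. The ADAMTS sum was 124.5, 116.9 and 126.6 FPKM in the controls and 81.2, 77.7 and 81.3 FPKM with LiCl, the ADAMTS-like sum 5.98, 5.66 and 6.06 against 3.21, 3.07 and 2.74 FPKM. The MMP sum was 257, 256.0 and 258 FPKM against 245, 244 and 255 FPKM, and the inhibitor sum 122, 115 and 117 FPKM against 124, 117 and 124 FPKM. The groups were thus apart in the ADAMTS, ADAMTS-like and, by a small margin, MMP sums and overlapped in the inhibitor sum.

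**Figure D1:**
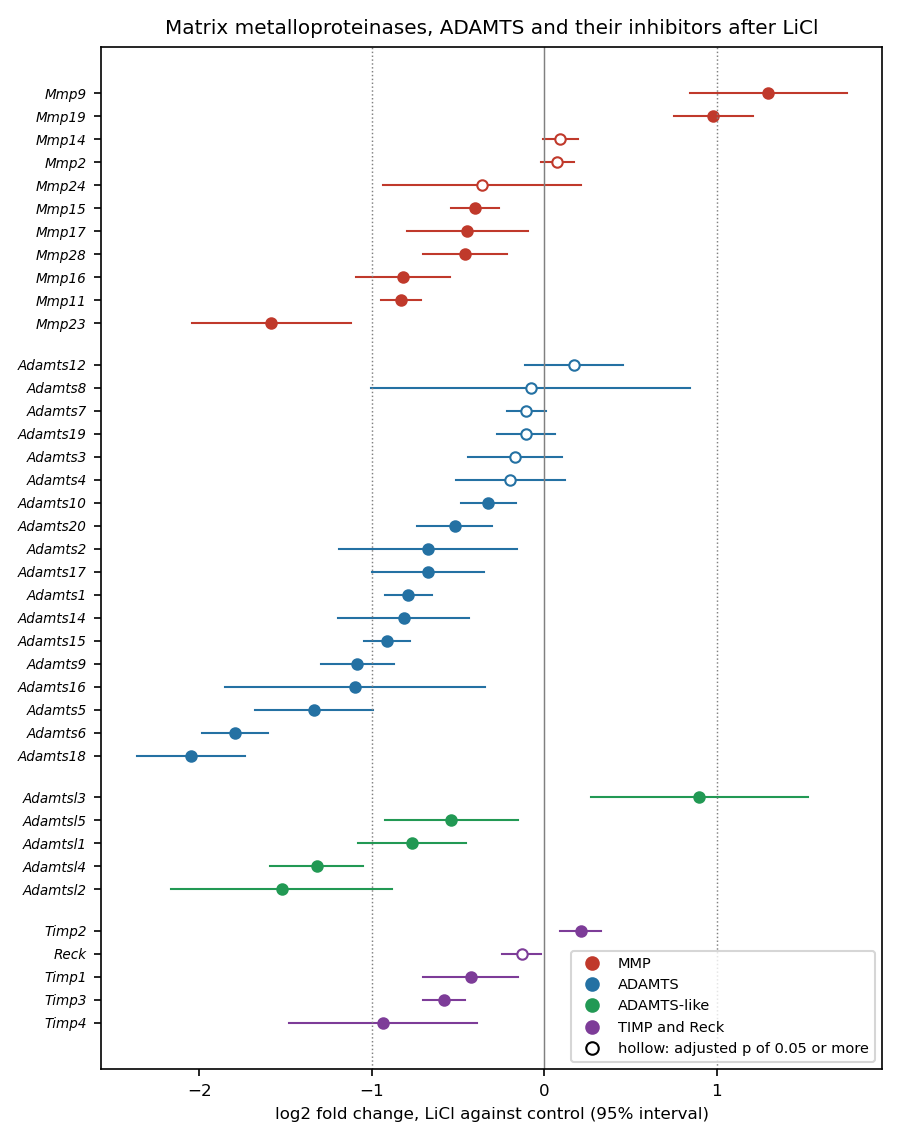
Log2 fold change (x axis, LiCl against control) of the 39 members, ordered within the families, with 95% intervals from edgeR's fit. Filled points have an adjusted p under 0.05, and dotted lines mark a log2 fold change of 1 and -1. The ADAMTS genes reach from 0.17 for Adamts12 down to -2.05 for Adamts18, and none of them is filled on the right of 0.

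Per length, the highest levels were those of genes that did not fall. *Mmp2*, *Mmp14* and *Timp2* were the most abundant members, with 102, 88.2 and 72.0 FPKM on average in the controls and 109, 95.3 and 84.4 FPKM with LiCl (n = 3 each). *Mmp14* encodes the membrane-bound protease that activates the proenzyme of *Mmp2*, a gelatinase, in a complex with TIMP2. *Mmp2* and *Mmp14* together held 74.2% of the summed MMP FPKM in the controls and 82.5% with LiCl. *Adamts1* at 38.0, *Mmp11* at 36.1 and *Reck* at 22.7 FPKM followed in the controls, and of these 3 genes *Adamts1* and *Mmp11* fell after LiCl. The order of the first 4 MMPs, *Mmp2*, *Mmp14*, *Mmp11* and *Mmp15*, was the same in both groups. On this scale every sample of *Mmp2* lay above every sample of *Mmp14*, in each group.

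**Figure D2:**
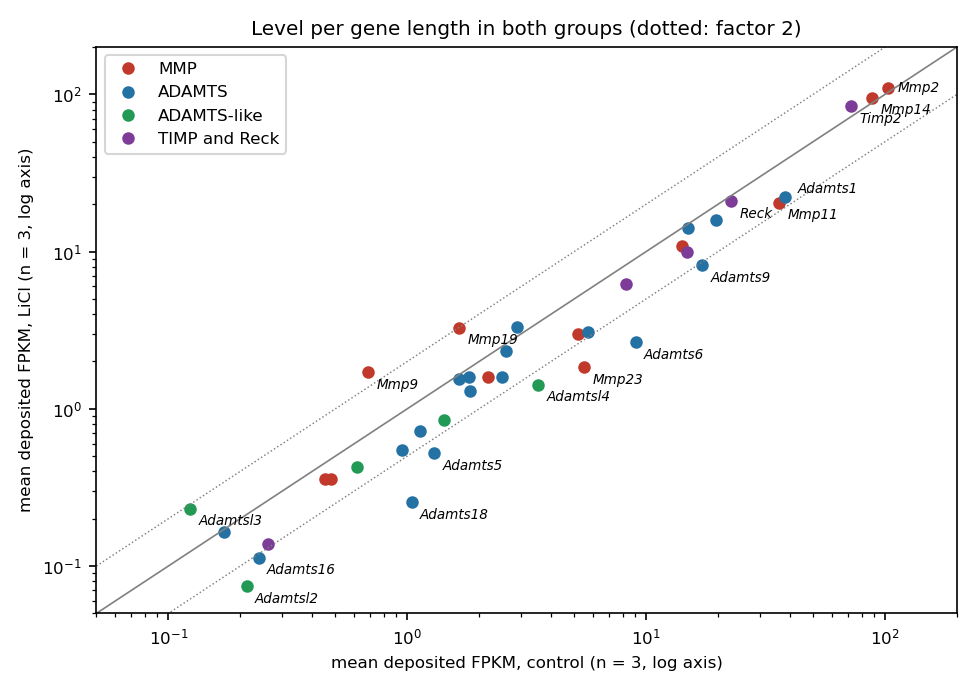
Mean deposited FPKM of each of the 39 members in control samples (x axis) and LiCl samples (y axis), n = 3 each, both on log axes. The solid line marks equal levels and the dotted lines a change by a factor of 2. Mmp2, Mmp14 and Timp2 sit at the upper end on or just above the line, and Adamts18, Adamts6 and Mmp23 lie furthest below it at levels of 1 to 10 FPKM in the controls.

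The gelatinases MMP2 and MMP9 differed. *Mmp9* (ENSMUSG00000017737), which is also known from macrophages and osteoclasts, had 1.67, 3.03 and 2.64 CPM in control replicates 1 to 3 and 5.92, 5.62 and 6.56 CPM with LiCl. All LiCl samples were higher than the controls, of which replicate 1 was the lowest. The log2 fold change was 1.30 (standard error, SE, 0.20, adjusted p = 0.00086 by edgeR), and with each replicate left out in turn it stayed between 1.09 and 1.48. *Mmp2* (ENSMUSG00000031740) had 345, 343 and 359 CPM in the controls and 361, 366 and 376 CPM with LiCl, a log2 fold change of 0.08 with a 95% interval from -0.02 to 0.17 (adjusted p = 0.18). Its groups did not overlap, but the difference did not pass the test.

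*Mmp14*, *Mmp15*, *Mmp16*, *Mmp17* and *Mmp24* were grouped as membrane-anchored MMPs. *Mmp23*, which has a membrane anchor too, was not in this group and is given further below. Of the 5 grouped genes, 3 fell and the other 2 did not pass the test. *Mmp14* (ENSMUSG00000000957) had 546, 534 and 515 CPM in the controls and 568, 548 and 586 CPM with LiCl, and its log2 fold change of 0.09 (95% interval from -0.01 to 0.19, adjusted p = 0.12) did not pass. *Mmp15*, a close relative, fell by 0.40 on the log2 scale from 76.9 ± 5.31 to 58.3 ± 2.38 CPM (SD, n = 3). *Mmp16* had 53.9, 36.5 and 45.8 CPM in the controls and 25.6, 25.6 and 25.9 CPM with LiCl. The controls of *Mmp16* varied widely, yet all were above the LiCl samples, and the log2 fold change was -0.82 (SE 0.12, adjusted p = 0.00062). *Mmp17* and *Mmp24* were low, with 3.20 and 2.15 CPM on average in the controls. *Mmp17* had a log2 fold change of -0.45 at an adjusted p of 0.044, which was lost when any one of the 6 samples was left out (adjusted p up to 0.15), with DESeq2 (0.15) and with the replicate block (0.080). *Mmp24* had -0.36 with a 95% interval from -0.94 to 0.21.

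The remaining MMPs moved in both directions. *Mmp23* (ENSMUSG00000029061), a protease without the usual cysteine switch, had 13.3, 14.8 and 10.8 CPM in the controls and 5.53, 4.44 and 2.98 CPM with LiCl. Every LiCl sample was below every control, and the log2 fold change was -1.58 (SE 0.20, adjusted p = 0.00031). *Mmp11* (ENSMUSG00000000901), stromelysin-3, is known to be made by stromal cells next to epithelia, and fell from 98.8, 102 and 103 CPM to 54.0, 57.4 and 59.3 CPM. Its log2 fold change of -0.83 (SE 0.05, adjusted p = 3.9e-06) varied little, between -0.86 and -0.79, when single replicates were left out. *Mmp19* (ENSMUSG00000025355) rose from 5.50, 6.25 and 5.87 CPM to 11.6, 10.9 and 12.3 CPM. At a log2 fold change of 0.98 (SE 0.10, adjusted p = 9.0e-05) it lay just inside the fold threshold, and it was past it without control replicate 2 or LiCl replicate 2, at 1.03 in each case. *Mmp28*, epilysin, fell by 0.46 on the log2 scale from 8.54 ± 0.45 to 6.21 ± 0.48 CPM (SD, n = 3).

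**Figure D3:**
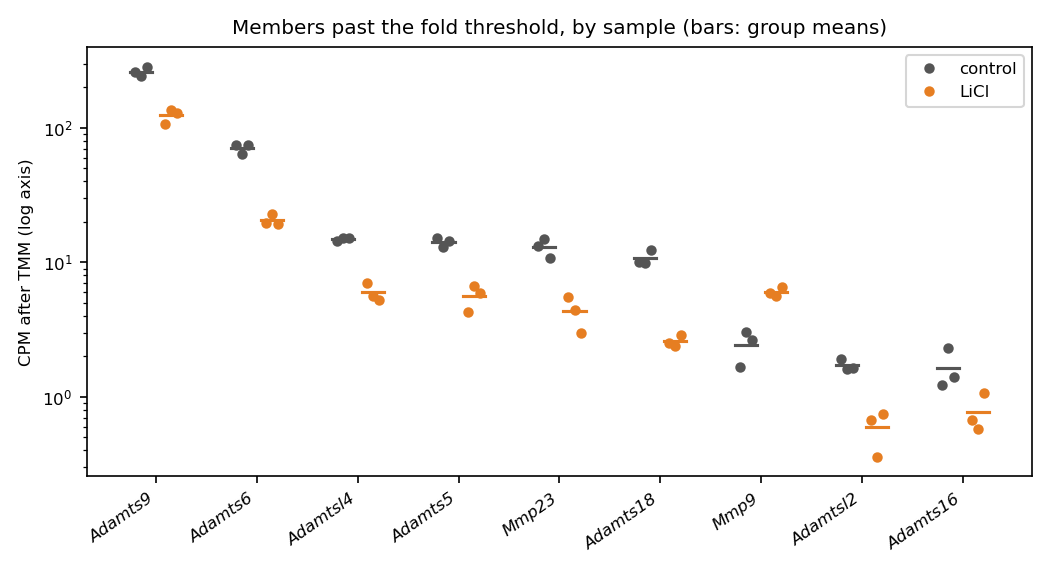
CPM after TMM normalization (y axis, log scale) of the 9 members past the fold threshold in each control sample (grey) and LiCl sample (orange), ordered by control level. Bars are group means of 3 samples. The orange points lie below the grey points in 8 genes and above them in Mmp9, and the closest groups are those of Adamts16.

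ADAMTS genes fell or did not pass the test. Of the 18, 12 were lower and 0 higher by edgeR, and 0 were higher at an unadjusted p under 0.05 or with DESeq2. The proteoglycanases, which cut versican and related proteoglycans, make up 7 of them, and 5 of these were lower. Their summed FPKM was 67.0, 62.6 and 68.6 in the controls and 37.8, 36.3 and 37.4 with LiCl. *Adamts9* (ENSMUSG00000030022), a versican-cleaving protease that is widely expressed in embryos, had 258, 242 and 286 CPM in the controls and 106, 135 and 129.6 CPM with LiCl. All LiCl samples were lower, and replicate 1 was the lowest of them. The log2 fold change was -1.08 (SE 0.09, adjusted p = 3.0e-05), which was -0.98 without LiCl replicate 1 and thus no longer past the fold threshold. *Adamts1* (ENSMUSG00000022893), the ADAMTS gene with the highest FPKM, had 209, 194 and 209 CPM in the controls and 127, 111 and 116 CPM with LiCl. The groups were clearly apart at a log2 fold change of -0.79 (SE 0.06, adjusted p = 1.5e-05). *Adamts5* (ENSMUSG00000022894), a main aggrecanase, fell from 15.1, 12.9 and 14.5 CPM to 4.31, 6.62 and 5.96 CPM. This was a log2 fold change of -1.34 (SE 0.15, adjusted p = 0.00014). *Adamts15* fell by 0.91 on the log2 scale, with 32.1, 32.2 and 31.2 CPM in the LiCl samples against 64.4, 57.4 and 58.3 CPM. *Adamts20*, known for its role in melanoblast migration, fell by 0.52. *Adamts4* did not pass (log2 fold change -0.20, 95% interval from -0.51 to 0.12), and neither did *Adamts8*, which was the lowest ADAMTS gene with 0.8 CPM on average in the controls and an interval from -1.01 to 0.85.

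The procollagen N-propeptidases remove the amino-terminal propeptide of fibrillar collagens. Of these 3 genes, 2 were lower. *Adamts14* fell from 5.70, 5.15 and 4.11 CPM to 2.74, 2.58 and 3.19 CPM, a log2 fold change of -0.81 (SE 0.17, adjusted p = 0.0040). *Adamts2* had 12.0, 9.05 and 11.1 CPM in the controls and 7.08, 4.19 and 8.83 CPM with LiCl. Its LiCl samples were widely spread, and replicate 3 came close to the lowest control. The log2 fold change of -0.67 (adjusted p = 0.039) was not past the test without control replicate 1 (0.11), control replicate 3 (0.10), LiCl replicate 1 (0.063) or LiCl replicate 2 (0.058). It moved to -0.42 without LiCl replicate 2 and to -0.91 without LiCl replicate 3. *Adamts3*, which also activates VEGFC together with CCBE1, had -0.17 with a 95% interval from -0.44 to 0.10.

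*Adamts6* and *Adamts10*, a pair linked to fibrillin microfibrils, both fell, but by unequal amounts. *Adamts6* (ENSMUSG00000046169) had 74.7, 64.3 and 75.2 CPM in the controls and 19.6, 22.8 and 19.4 CPM with LiCl. The samples of each group lay close together, and the log2 fold change was -1.79 (SE 0.09, adjusted p = 9.5e-07), a 3.47-fold decrease. *Adamts10* (ENSMUSG00000024299) fell from 156, 168 and 165 CPM to 143, 117 and 130.2 CPM, a log2 fold change of -0.33 (SE 0.07, adjusted p = 0.0053). On the FPKM scale *Adamts6* was thereby reduced from 9.05 ± 0.74 to 2.64 ± 0.24 (SD, n = 3), whereas *Adamts10* stayed the second most abundant ADAMTS gene at 15.8 ± 1.58 FPKM with LiCl. *Adamts7* and *Adamts12*, which cleave cartilage oligomeric matrix protein, did not pass the test. Their log2 fold changes were -0.10 (95% interval from -0.22 to 0.01) and 0.17 (from -0.11 to 0.46).

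*Adamts18* (ENSMUSG00000053399) had the largest decrease of the members in the edgeR fit of all samples, whereas with limma *Adamts6* fell more, by 1.46 against 0.70 on log2(FPKM + 1) and by 1.74 against 1.68 on log2(FPKM + 0.1). It had 10.1, 9.82 and 12.3 CPM in the controls and 2.51, 2.40 and 2.87 CPM with LiCl. The groups were far apart, with a log2 fold change of -2.05 (SE 0.14, adjusted p = 7.0e-06), a 4.13-fold decrease, and between -2.12 and -1.93 with each replicate left out. *Adamts18* is known from the branching of epithelial organs. Its closest relative *Adamts16* was much lower, with 1.22, 2.32 and 1.4 CPM in the controls and 0.68, 0.57 and 1.06 CPM with LiCl. The groups of *Adamts16* nearly touched. Its log2 fold change of -1.10 (adjusted p = 0.025) fell short of the test without control replicate 2 (-0.76, adjusted p = 0.099), LiCl replicate 1 (adjusted p = 0.074) or LiCl replicate 2 (-0.93, 0.078) and with the replicate block (-1.07, 0.051). *Adamts17* fell by 0.67 on the log2 scale from 19.6 ± 3.8 to 12.3 ± 1.27 CPM (SD, n = 3). *Adamts19*, the relative of *Adamts17*, had -0.11 with a 95% interval from -0.27 to 0.06.

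Of the 5 ADAMTS-like genes, 4 fell and 1 rose. *Adamtsl4* (ENSMUSG00000015850), which binds fibrillin-1 and is known for its role in the lens zonule, had 14.5, 15.1 and 15.2 CPM in the controls and 7.08, 5.58 and 5.29 CPM with LiCl. The controls were nearly equal and all LiCl samples were below them, at a log2 fold change of -1.32 (SE 0.12, adjusted p = 3.7e-05). *Adamtsl2* (ENSMUSG00000036040), which also binds fibrillin and the TGFB-binding protein LTBP1, fell from 1.91, 1.61 and 1.63 CPM to 0.68, 0.36 and 0.74 CPM. At 55 counts or fewer per sample, its log2 fold change of -1.52 had a wide 95% interval from -2.16 to -0.88 (adjusted p = 0.0023). *Adamtsl1* fell by 0.77 and *Adamtsl5* by 0.54 on the log2 scale. *Adamtsl5* did not pass without control replicate 1 (adjusted p = 0.10), control replicate 3 (0.058), LiCl replicate 1 (0.088) or LiCl replicate 3 (0.086), nor with DESeq2 (0.096) or the replicate block (0.059). *Adamtsl3* went in the opposite direction, from 1.22, 0.87 and 0.82 CPM to 2.28, 1.83 and 1.28 CPM. Its highest control and lowest LiCl sample were only 0.06 CPM apart. The log2 fold change was 0.90 (adjusted p = 0.028) and did not pass without control replicate 2 (0.83, adjusted p = 0.076), control replicate 3 (0.79, 0.092), LiCl replicate 1 (0.68, 0.10) or LiCl replicate 2 (0.89, 0.060).

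Among the inhibitors, *Timp2* rose slightly and the other TIMPs fell. *Timp2* (ENSMUSG00000017466) had 300.3, 273 and 278 CPM in the controls and 336, 313 and 336 CPM with LiCl, a log2 fold change of 0.21 (SE 0.05, adjusted p = 0.010). *Timp3* (ENSMUSG00000020044), a matrix-bound inhibitor that also blocks ADAMTS proteases and ADAMs, fell from 125, 117 and 123 CPM to 83.2, 76.4 and 84.2 CPM. Its groups were well apart, and the log2 fold change was -0.58 (SE 0.05, adjusted p = 4.7e-05). *Timp1* fell by 0.43 from 7.41 ± 0.67 to 5.51 ± 0.47 CPM (SD, n = 3), which did not pass without control replicate 2 (adjusted p = 0.067), LiCl replicate 1 (0.054) or LiCl replicate 3 (0.073). *Timp4* was low, with 1.84, 1.55 and 1.31 CPM in the controls and 0.74, 0.97 and 0.74 CPM with LiCl, a log2 fold change of -0.93 (adjusted p = 0.012), and -1.04 without control replicate 3 and -1.07 without LiCl replicate 2. *Reck* had 113, 105 and 113 CPM in the controls and 104, 97.5 and 99.1 CPM with LiCl. The LiCl samples of *Reck* were all lower, but its log2 fold change of -0.13 (95% interval from -0.25 to -0.02) did not pass after adjustment (adjusted p = 0.063), except without control replicate 2 (0.033) or with scaling by library size only (0.025).

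The counting may have mixed reads of some members with those of genes on the opposite strand. The paper's methods name a stranded cDNA synthesis, but the strand setting of the counting is not given in the sources used here. In the annotation of GRCm38, 11 of the 43 listed genes share exon bases with another gene. *Timp4* shares 90 bases with *Syn2*, which had 391 to 445 counts in the controls and 171 to 222 with LiCl, so *Timp4*, at 53 counts or fewer, and *Syn2* fell together and cannot be told apart with certainty. *Mmp11* shares 155 bases with *Chchd10*, which fell too (log2 fold change -1.11) and had at most 210 counts. *Timp3* shares 1733 bases with *Syn3*, which had at most 347 counts against up to 3761 of *Timp3*. *Mmp19* shares 789 bases with *Tmem198b*, which had 1010 to 1360 counts and a log2 fold change of -0.09 (adjusted p = 0.33), opposite in sign to that of *Mmp19*. *Mmp19* also shares 212 bases with *Gm47093*, which rose with it (log2 fold change 1.75, adjusted p = 0.018) and had at most 20 counts. The 2 genes antisense to *Adamts9* had at most 5 counts. Reads in the shared bases were not counted apart, so their part in the values of these members was not tested.

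Other genes of pericellular proteolysis were grouped in lists, which, like the members, were chosen with earlier results of these data known. Their counts are read beside the 22.4% of all tested genes that fell and the 21.1% that rose, together 43.5%. Among 11 further genes of the same families, 5 were tested, of which 3 fell and 2 did not pass. *Mmp12*, the macrophage elastase, fell from 2.68, 3.06 and 2.22 CPM to 0.515, 0.788 and 0.709 CPM, a log2 fold change of -1.98 (adjusted p = 0.00021), in contrast to *Mmp9*. *Papln*, an ADAMTS-like protein, fell by 1.92 at 17 counts or fewer per sample. It did not pass in 1 of the 14 settings in which it could be tested. *Thsd4*, also known as *Adamtsl6*, was abundant and did not pass at -0.02. Of the 11 genes of the ADAM sheddase list, 7 fell and 1, *Adam8*, rose. Past the fold threshold were *Adam23* at -1.10 (adjusted p = 0.00012) and *Adam33* at -1.52 (adjusted p = 0.021). ADAM23 and the other falling members ADAM11 and ADAM22 are known to lack protease activity. *Adam33* had 21 counts or fewer and passed the test in 9 of 14 settings. *Adam10* and *Adam17*, the main sheddases, had log2 fold changes of -0.20 (adjusted p = 0.0093) and 0.10 (0.13).

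Among genes of plasminogen activation, the activators *Plau* and *Plat* fell by 0.98 and 0.37 on the log2 scale (adjusted p = 0.00042 and 0.00028). *Serpine2*, an inhibitor of these activators, rose by 0.50, and *Plaur*, the receptor of *Plau*, did not pass at -0.23. *Plau* had 34.3, 41.0 and 49.7 CPM in the controls and 20.1, 19.1 and 24.1 CPM with LiCl. Of the surface partners, *Cd44* (ENSMUSG00000005087), a hyaluronan receptor that docks MMP9 and MMP14 at the cell surface, rose from 12.7, 12.9 and 14.5 CPM to 88.0, 62.7 and 83.4 CPM. This was a log2 fold change of 2.54 (SE 0.13, adjusted p = 1.2e-06). *A2m*, a protease-trapping inhibitor, rose by 0.69, and the other 3 genes of the list did not pass. Of the proprotein convertases, which activate many of these proenzymes, 2 of 4 fell, namely *Furin* by 0.39 and *Pcsk6* by 0.53.

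Substrates and partners of the proteases are read beside the 22.4% of all tested genes that fell. Of the 6 fibrillar procollagen genes, 5 fell, with a median log2 fold change of -0.46, and *Col2a1* did not pass. Among those that fell, *Col5a2* passed narrowly at -0.23 (adjusted p = 0.044 by edgeR), and its groups overlapped. *Pcolce*, which enhances the processing of procollagen, fell by 0.89, the 1 gene of 5 tested in the astacin list to pass. Of the 8 microfibril partners, 5 fell and 3 did not pass, with *Ltbp4* at -0.94 and *Mfap5* at -3.22. *Mfap5* went from 2.33, 2.25 and 1.93 CPM to 0.32, 0.04 and 0.32 CPM, which were 10, 1 and 9 counts with LiCl. Over the 14 settings in which it could be tested, its log2 fold change lay between -5.76 and -0.59. Of 8 tested genes for hyalectans and hyaluronan partners, 2 fell and 1 rose, or 37.5% either way against 43.5% of all tested genes. *Hapln1*, a link protein that ties hyaluronan to versican, fell by 1.34 (adjusted p = 2.1e-06), whereas versican itself, *Vcan*, did not pass at -0.30 (adjusted p = 0.15). *Vegfc*, the growth factor that ADAMTS3 processes, fell by 0.81, and *Ccbe1* did not pass at 0.28 (adjusted p = 0.090).

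**Figure D4:**
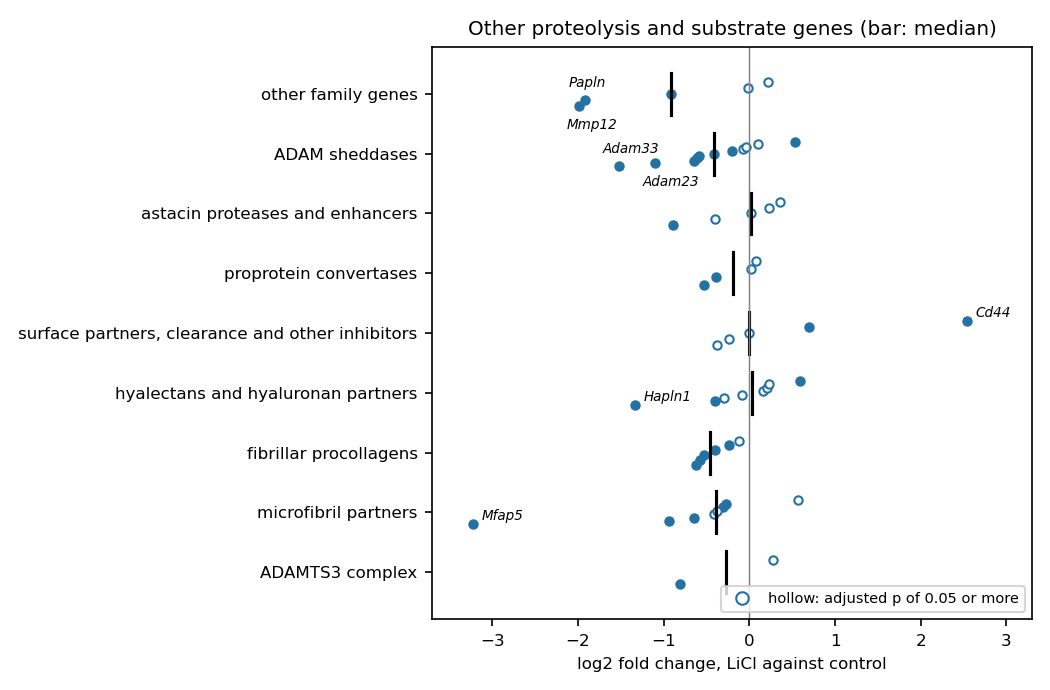
Log2 fold change (x axis, LiCl against control) of the tested genes in 9 lists of related proteases, regulators and substrates. Each point is a gene, filled at an adjusted p under 0.05, and black bars are list medians. Genes past the fold threshold are named, and Cd44 is the only named gene on the right.

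The whole series frames these values as follows. Total counts lay between 28473436 and 31266945 per sample, and *Axin2*, a WNT target that serves as a check of the treatment, had a log2 fold change of 0.92. Counts of marker genes are likewise read beside the 22.4% of all tested genes that fell and the 21.1% that rose. Marker lists of both ureter compartments were lower after LiCl. For the epithelium, 5 of 6 genes fell and 1, *Epcam*, rose, with a summed level of 1053 to 1342 CPM in the controls and 775 to 811 CPM with LiCl. For the mesenchyme, 4 of 5 genes fell and *Foxf1* did not pass, at 1572 to 1753 CPM and 1095 to 1106 CPM. In whole organs, fewer cells of a type and less RNA per cell cannot be told apart, and the part of these markers in the results on proteases was not tested. The summed level of 5 macrophage markers, which touches *Mmp9* and *Mmp12*, overlapped between the groups with 66.5 to 94.4 CPM in the controls and 69.3 to 91.1 CPM with LiCl, and 1 gene rose and 1 fell. Of 5 endothelial markers, *Tek* fell, and the sums of 415 to 518 and 361 to 450 CPM overlapped. Of 5 smooth muscle markers, 3 fell, with 68.1 to 87.3 CPM in the controls and 48.8 to 62.5 CPM with LiCl. Cartilage, nephron progenitor, glial and neuronal, and erythroid markers had 1, 0, 0 and 2 higher and 1, 2, 0 and 0 lower genes of 3, 4, 5 and 4 tested.

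Skeletal muscle markers were high in LiCl replicates 1 and 3, with a sum of 27.8 and 58.0 CPM against 2.94 CPM in replicate 2 and 1.5 to 3.83 CPM in the controls. Without these replicates, with 1 LiCl sample that was assumed to vary like the controls, 19 members were lower and 2 higher at an adjusted p under 0.05, and 7 were lower and 1 higher past the fold threshold. *Adamtsl2* had the largest decrease in this fit, with a log2 fold change of -2.24 (adjusted p = 0.0075). *Adamts18*, *Adamts6*, *Mmp23* and *Adamtsl4* had -2.15, -1.64, -1.54 and -1.41, and *Mmp9* had 1.20. Of the members past the test with all samples, 9 did not pass there, namely *Mmp17* (adjusted p = 0.36), *Adamts16* (0.066), *Adamts17* (0.051), *Adamtsl1* (0.057), *Adamtsl3* (0.11), *Adamtsl5* (0.33), *Timp1* (0.29), *Timp2* (0.21) and *Timp4* (0.23). *Adamts4* passed there at a log2 fold change of -0.54 (adjusted p = 0.038), *Adamts2* had -1.34, *Adamts9* -0.95, and *Adamts8*, which did not pass, -1.29.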

How the data were processed

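The members and gene lists were chosen with earlier results of these data known. RNA was sequenced from 3 control and 3 LiCl samples, grouped by the sample titles. The authors deposited raw counts per Ensembl gene, without normalization. FPKM values were deposited too, 1 file a sample; how these were computed is not given in the sources used here. The submitters' processing notes name fastp 0.23, STAR 2.7, featureCounts 2.0, DESeq2 1.40 and GRCm39, whereas the paper's methods name HISAT2 as aligner. The annotation and the strand setting of the counting are not given in the sources used here. Symbols came from GENCODE vM21 (52073 of 56748 identifiers).

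The main test was the quasi-likelihood test of edgeR 4.0.16 (R 4.3.3) on TMM-normalized counts of the 18188 genes kept by filterByExpr, with Benjamini-Hochberg adjustment over all of them. The SE is the size of the log2 fold change over the root of F. The fold threshold, a log2 fold change of 1, is that of the study. CPM used TMM factors. No sample repeated another: between samples of a group, the chi-square over its degrees of freedom was 5.79 to 14.4. For 1 gene, exact permutation of 3 against 3 samples reaches p = 0.1 at best. At this depth, members under 60 counts per sample have wide intervals.

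Every member kept by the rule is reported, those past the fold threshold with all samples, and from the lists the genes past that threshold. Other list genes and the printed promoters were picked with their values in view. The other settings tried were scaling by RLE or by library size, DESeq2 1.42.0, 2 filters, the replicate block, each sample left out, LiCl replicates 1 and 3 left out together, limma 3.58.1 on log2(FPKM + 1), with a minimum mean of 0.5 FPKM and without, on log2(FPKM + 0.1) with that minimum, and glmTreat. The scripts were tested on simulated counts. Protein sequences were not used here. In the plasminogen activation list, 1 gene is not reported here, so no counts are given for that list.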

Additional observations from a re-analysis of the deposited data

How the results depend on the processing

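The 8 lower and 1 higher members past the fold threshold were 8 and 1 with RLE size factors, library size only, DESeq2 and at least 10 counts in every sample. Without filter 2 were higher. With each replicate left out, 6 to 9 were lower and 1 to 2 higher, and 20 to 23 were lower and 3 to 4 higher at an adjusted p under 0.05, against 25 and 4. Without LiCl replicates 1 and 3, 2 were higher at an adjusted p under 0.05. On log2(FPKM + 1), with and without filter, and with glmTreat, 2 members were lower and 0 higher past the fold threshold. The pseudocount shrinks low genes, and the minimum mean of 0.5 FPKM left *Adamts16* and *Adamtsl2* out of the filtered fit. *Adamts9*, not a low gene with 17.2 FPKM on average in the controls, had -0.98 on log2(FPKM + 1). The test of glmTreat is against the threshold itself, so by it a change beyond the threshold was shown for only 2 members. Of all genes, 498 were higher and 835 lower, but 177 and 141 on log2(FPKM + 1), 171 and 139 on it without filter and 172 and 162 with glmTreat, and 430 were lower on log2(FPKM + 0.1). Of 609 values of single members under the alternatives, 551 kept their direction and their side of an adjusted p of 0.05, whatever the fold threshold, 51 lost the adjusted p, 4 gained it and 3 changed sign. The latter were those of *Adamts8*, whose log2 fold change lay between -0.44 and 0.28 when single replicates were dropped and did not pass in any setting run; it was 0.05 without control replicate 1, 0.0027 without control replicate 3 and 0.28 without LiCl replicate 2. Family sums moved little with TMM CPM per length in place of FPKM. Correlations of the deviations of equally numbered samples were -0.01, -0.18 and 0.13, and 2 of 6 samples correlated best with their own number. With 3 samples a group this is too little to tell whether a shared replicate number marks a pair. With the replicate block, 7 members were lower and 1 higher past the fold threshold, and 22 lower and 4 higher at an adjusted p under 0.05.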

Other observations

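The balance of proteases to inhibitors was also read as a ratio of FPKM, chosen after the levels were seen. The summed MMPs over the summed TIMPs were 2.60, 2.74 and 2.76 in the controls and 2.38, 2.53 and 2.48 with LiCl. For *Mmp14* over *Timp2* the ratios were 1.19, 1.28 and 1.21 against 1.10, 1.14 and 1.14, and for *Mmp2* over *Timp2* they were 1.33, 1.45 and 1.49 against 1.24, 1.35 and 1.29, where the groups overlapped. *Adamts1* over *Timp3*, which fell together, gave 2.57, 2.55 and 2.61 against 2.34, 2.23 and 2.12. Each of the first 2 ratios and the last was lower in all LiCl samples, with p = 0.1 as the smallest that an exact permutation test of 3 against 3 samples could give.

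The promoters of *Mmp3*, *Mmp7*, *Mmp10* and *Mmp13* also stood apart in base composition, which was looked at after the sequences were seen. Of their 5 promoters, with 2 overlapping ones for *Mmp7*, 4 held TATAAA on the sense strand before the start. This compares with 2 of 25 promoters of measured members and 7.59% of all promoters. Their GC content was 37.7% to 52.0% over 300 bases, and that of the measured members 53.3% to 80.0%. The 4 genes were set apart by the count rule itself and lie near each other on chromosome 9, so their promoters are not independent cases.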
